A study of Rattus norvegicus with 30 samples.

Results

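The contractile genes of smooth muscle were followed in rat testes that matured in the animal and in prepubertal testicular explants of the same strain kept in organotypic culture. They are the transcripts by which the peritubular myoid cells, the muscle-like cells around the seminiferous tubules, are usually recognised. A list of 10 symbols was fixed as members, namely Acta2, Actg2, Tagln, Cnn1, Lmod1, Smtn, Myh11, Myl9, Mylk and Des, and a row of the expression table belonged to the set when its Entrez gene number belonged to a member. All 10 were found among the 17322 genes of the table, each under 1 number.

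The study sought what lies behind the arrest of meiosis in cultured prepubertal testis and measured polyadenylated RNA by stranded sequencing. All tissue came from Wistar Han rats with no genetic modification. The in vivo groups were testes taken without their capsule, the tunica albuginea. They were collected at 8.5 and 14.5 days postpartum (dpp), at 24.5 and 30.5 dpp, and later at 36.5 dpp and 53.5 dpp. The cultured tissues were explants dissected at 8.5 dpp and laid on agarose at the gas–liquid interface, in medium with knockout serum replacement, retinol and vitamin E, for 6, 16, 22 or 28 days, named D6, D16, D22 and D28. Their age at collection was thus 14.5 dpp at D6, 24.5 dpp at D16, 30.5 dpp at D22 and 36.5 dpp at D28. The necrotic centre of the explants was cut away before RNA extraction, and each cultured library pooled explants from several males. Each group had 3 libraries except 14.5 dpp, where the third library, labelled an outlier by the submitters, was listed at 0 for every gene and left 2. By the study's methods the RNA sets of a group were isolated independently, from different testes in vivo and from separate pools of explants in culture.

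Values were FPKM, fragments per kilobase of transcript, made relative to sequencing depth, and only their relative depth could be read. In the 29 libraries used, 12520 to 13563 genes were above 0, and the relative depth ran from 0.849 to 1.54. Because FPKM are shares of a library, they move with the cell makeup of the testis. The summed FPKM of 8 germ cell markers was 28.2 to 31.0 at 8.5 dpp, 2961 to 4359 at 36.5 dpp and 56.0 to 123 at D28. That of 11 Sertoli cell markers was 683 to 833 at 8.5 dpp and 3757 to 4475 at D28. Some genes that nearly every cell uses, among them Myh9, were listed at 0 in every library, so a 0 was read only as a listing.

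Smooth muscle shortens when myosin filaments pull on actin filaments, and calcium starts this by activating myosin light chain kinase, which phosphorylates the regulatory light chain. Calponin, transgelin, smoothelin and leiomodin bind the actin filaments, and desmin filaments tie the apparatus together. In the testis the layer of peritubular myoid cells contracts to move tubular fluid and sperm, and the walls of blood vessels hold the same proteins, so these transcripts in whole tissue come from both.

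Serum response factor drives many of these genes through a DNA element called the CArG box. RefSeq promoter sequences of the GRCr8 build, from 250 bases before the start site to 50 after it, were held for 6 of the 10 members. Myh11, Tagln, Lmod1 and Myl9 were named only. On either strand of this whole stretch, no member held an exact CArG box, which 1.64% of all 33469 promoters held. With at most 1 departure 2 members held it, Acta2 and Smtn, as did 21.3% of all promoters. Only the 250 bases before the start site are shown. Acta2 and Smtn, the only members with a match, also lay near the opposite ends of the range of falls in culture. The windows of Cnn1, Mylk, Des and Actg2 held no match and are not shown. The nonmuscle actin Actg1, which was not called, held an exact match. Capitals mark the element, and letters read 5′ to 3′ on the strand of the gene.

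Acta2, chr1:241172504-241172753, minus strand: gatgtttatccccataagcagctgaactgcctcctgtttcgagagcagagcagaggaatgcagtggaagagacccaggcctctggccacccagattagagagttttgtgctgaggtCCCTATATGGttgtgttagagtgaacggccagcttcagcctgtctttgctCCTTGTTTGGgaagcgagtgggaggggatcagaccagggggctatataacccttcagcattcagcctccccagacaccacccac
Smtn, chr14:82644515-82644764, minus strand: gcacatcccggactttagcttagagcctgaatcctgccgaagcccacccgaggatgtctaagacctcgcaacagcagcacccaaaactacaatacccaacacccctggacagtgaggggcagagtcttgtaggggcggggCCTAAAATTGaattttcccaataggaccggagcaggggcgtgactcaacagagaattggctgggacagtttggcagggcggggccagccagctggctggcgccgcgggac
Actg1, chr10:106120952-106121201, minus strand: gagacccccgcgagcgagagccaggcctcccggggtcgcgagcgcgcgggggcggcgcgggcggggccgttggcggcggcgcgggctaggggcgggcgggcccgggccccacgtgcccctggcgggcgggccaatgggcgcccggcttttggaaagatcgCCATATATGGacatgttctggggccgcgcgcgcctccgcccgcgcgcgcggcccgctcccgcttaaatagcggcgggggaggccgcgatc

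In Acta2 the elements began 134 and 84 bases before the start site, in Smtn 110 bases before it and in Actg1 90 bases before it. A match of letters does not show binding, and a window without a match says nothing of the factor.

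**Figure D1:**
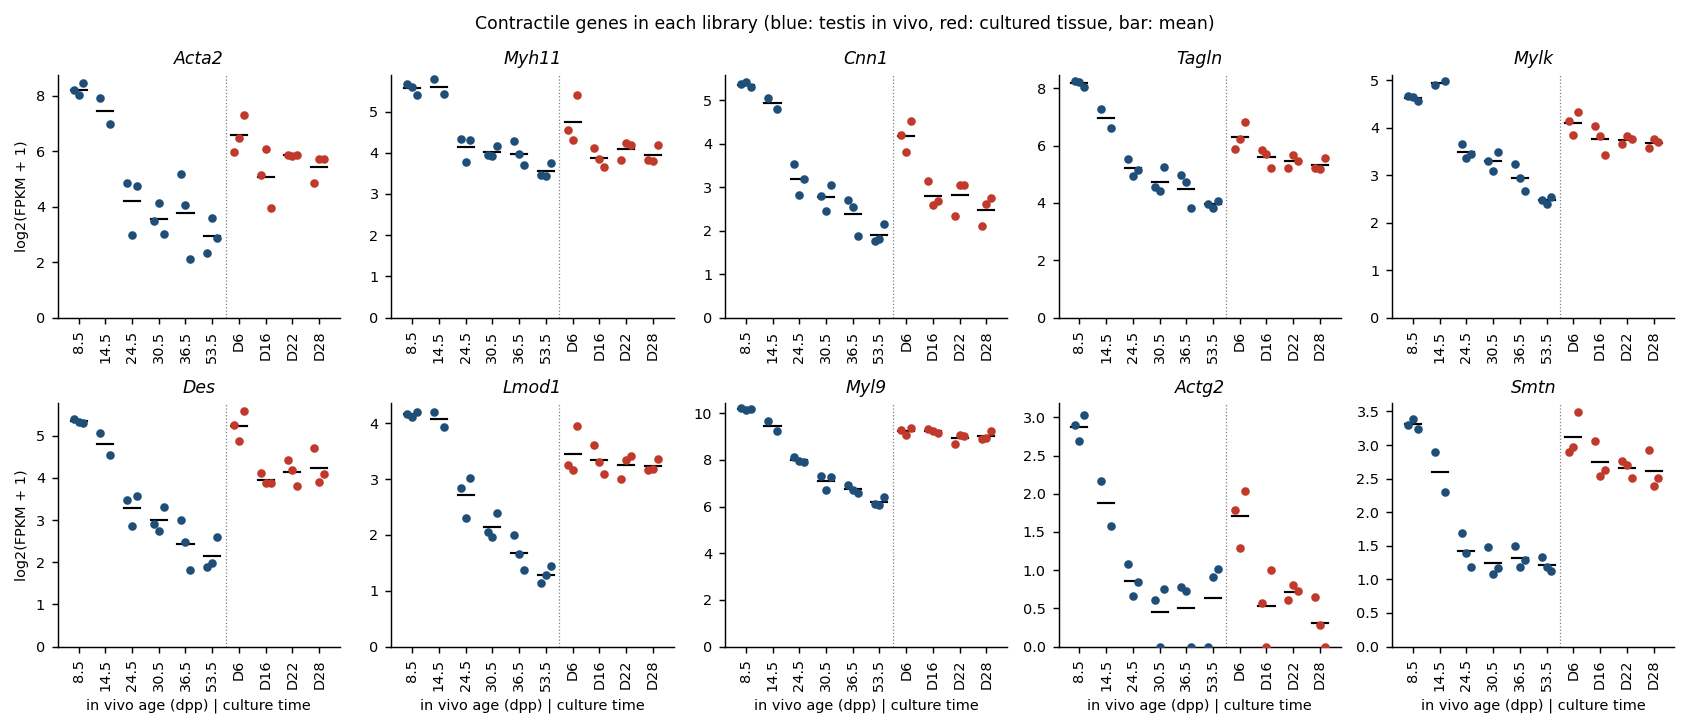
The 10 contractile genes in all 29 libraries, on the log2(FPKM + 1) scale (vertical axis), with in vivo ages in blue and culture times in red (horizontal axis). Points are libraries and bars are group means. The 3 libraries of 8.5 dpp lie above all 3 of D28 in each of the 10 panels.

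The tissue that entered culture was rich in these transcripts. At 8.5 dpp the regulatory light chain Myl9 was highest per length of transcript at 1159 ± 26.1 FPKM (SD, n = 3), followed by the actin Acta2 at 300.6 ± 44.9 and the actin-binding Tagln at 288 ± 21.6. The next were Myh11 (46.3 ± 4.39), Cnn1 (40.0 ± 1.65) and Des (39.6 ± 1.46), and the lowest were Mylk (23.8 ± 0.966), Lmod1 (16.9 ± 0.523), Smtn (8.95 ± 0.528) and Actg2 (5.43 to 7.17). The libraries of Acta2 and Tagln overlapped, as did those of Cnn1 with both Myh11 and Des, so neighbours in that order did not differ beyond their spread there. Myl9 shares long stretches with Myl12a and Myl12b, and the muscle actins with each other, so how the counting divided reads among these copies is uncertain.

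After 28 days of culture every member was lower than in the starting tissue, with no overlap between libraries in 10 of 10, against 28.7% of all genes tested. By limma on log2(FPKM + 1), 9 were called lower at an adjusted p of at most 0.05 with a ratio of medians of at least 2, where 10.5% of 11539 genes were. The members' median difference was -1.38 on that scale and that of all genes 0.04. The scale understates changes of low genes. In whole tissue, fewer cells of a type and less RNA per cell cannot be told apart.

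Of the actins, Acta2, the smooth muscle α-actin, measured 292, 261 and 349 FPKM at 8.5 dpp. It measured 61.5, 88.6 and 158 at D6 and 28.1, 51.6 and 51.9 at D28. The D6 libraries already lay below every starting one, and those of D28 below every D6 one. The difference from 8.5 dpp was -1.64 ± 0.44 (SE) at D6 (adjusted p = 0.00846, limma) and -2.79 ± 0.44 at D28 (adjusted p = 0.00013, limma). At D28 its mean level was 14.6% of the start.

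Actg2, the γ-actin typical of visceral muscle, was the lowest member. It measured 6.49, 5.43 and 7.17 FPKM at 8.5 dpp and 2.45, 1.45 and 3.09 at D6. At D28 it was at 0.575, 0.217 and 0 FPKM, the 0 being a listing. All cultured libraries lay below all starting ones, with a fitted difference at D28 of -2.56 ± 0.24 (adjusted p = 1.339e-06, limma), which at such levels depends on the pseudocount.

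The actin-binding proteins divided into those with large and those with small differences. Tagln, transgelin, was at 305, 296 and 264 FPKM at 8.5 dpp, 57.4, 75.0 and 112 at D6 and 35.9, 35.3 and 46.7 at D28. No libraries overlapped among these groups. It had the largest difference of the 10 at D6, -1.86 ± 0.22 (adjusted p = 1.975e-05, limma), and stood at -2.85 ± 0.22 at D28 (adjusted p = 2.171e-07, limma), a mean 7.33-fold lower.

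Cnn1, calponin, which damps the myosin ATPase on actin, measured 40.2, 41.5 and 38.2 FPKM at the start. It fell to 17.3, 13.1 and 21.9 at D6 and 3.31, 5.11 and 5.69 at D28. Each group lay apart from the others. The difference at D28 was -2.87 ± 0.23 (adjusted p = 3.178e-07, limma), a mean 8.50-fold lower.

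Lmod1, leiomodin, which nucleates actin filaments, was at 16.996, 16.4 and 17.4 FPKM at 8.5 dpp and 7.92, 8.10 and 9.28 at D28. The D28 values were close together and about the level already seen at D6 (8.50, 7.93 and 14.4). Its difference of -0.93 ± 0.19 at D28 (adjusted p = 0.000894, limma) met the ratio narrowly, with medians of 16.996 and 8.10 FPKM. The means were 2.00-fold apart.

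Smtn, smoothelin, an actin-binding protein of contractile smooth muscle, measured 8.85, 9.52 and 8.48 FPKM at 8.5 dpp and 6.60, 4.25 and 4.72 at D28. It was the member whose level changed least by D28, a mean of 58.0% of the start. Its difference of -0.70 ± 0.18 passed the test (adjusted p = 0.00465, limma) but not the ratio.

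Of the motor, Myh11, the smooth muscle myosin heavy chain, was at 50.0, 47.4 and 41.4 FPKM at the start, 22.4, 19.0 and 41.2 at D6 and 13.05, 12.98 and 17.3 at D28. The third D6 library lay just under the lowest starting one, while the D28 libraries were far below. The difference at D28 was -1.62 ± 0.23 (adjusted p = 5.684e-05, limma).

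Most of the fall of Myl9 was present at D6. It measured 1184, 1132 and 1161 FPKM at the start, 628, 535 and 662 at D6 and 477, 492 and 609 at D28, so D6 and D28 overlapped. At D28 it was -1.15 ± 0.12 from the start (adjusted p = 3.611e-06, limma). Mylk, the kinase that phosphorylates it, was at 24.4, 24.2 and 22.7 FPKM at 8.5 dpp and 10.95, 12.5 and 12.0 at D28, a difference of -0.95 ± 0.14 (adjusted p = 8.925e-05, limma).

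Des, desmin, fell late. It measured 41.2, 39.2 and 38.4 FPKM at 8.5 dpp and 37.1, 28.5 and 46.7 at D6, with overlap and a difference of -0.11 ± 0.21 (adjusted p = 0.713, limma). At D16 it was at 16.3, 13.7 and 13.6 and at D28 at 25.0, 14.02 and 16.0, both below every D6 library. The difference at D28 was -1.11 ± 0.21 (adjusted p = 0.000589, limma).

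Against 8.5 dpp the count of members called lower was 5 at D6 (Acta2, Myh11, Cnn1, Tagln and Actg2), where 6.23% of genes were called lower and 24.9% had no overlap, as had 8 members. It was 6 at D16, with Des added (9.72% of genes), and 7 at D22, with Myl9 added (9.92%). Lmod1 and Mylk were added at D28. The 4 comparisons share the 8.5 dpp libraries, and every member's difference lay below 0 at each of the 4 times.

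**Figure D2:**
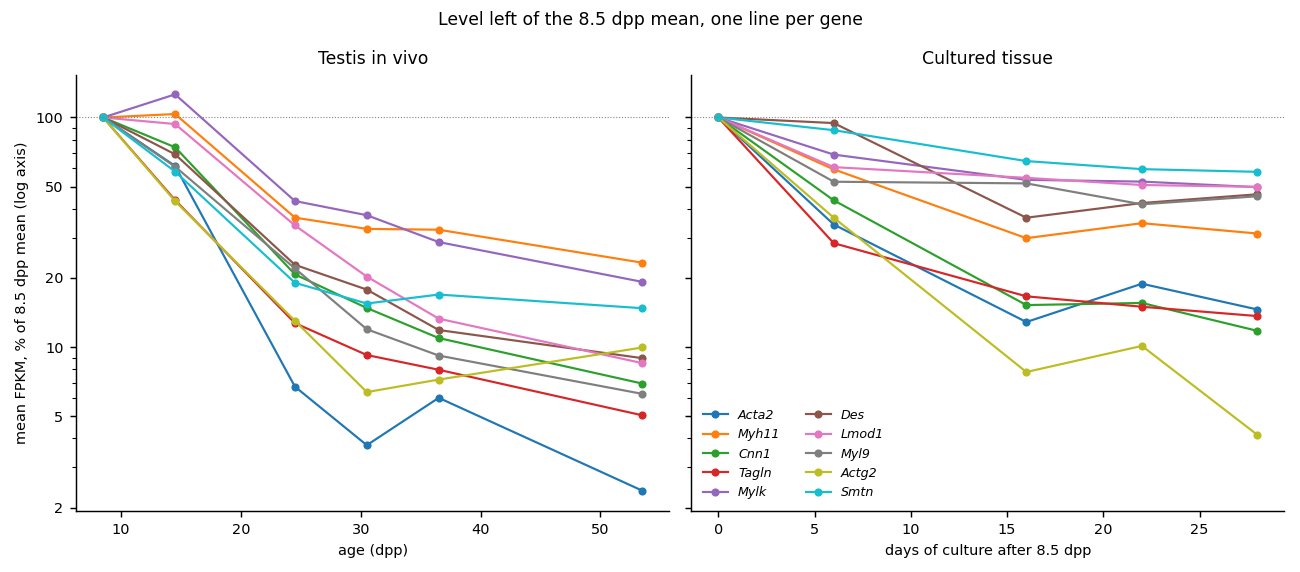
Mean FPKM of each contractile gene as a percentage of its own mean at 8.5 dpp, on a log axis, against age in vivo (left) and days of culture (right). The members' median at D28 was 38.3%, and at 36.5 dpp in vivo it was 11.4%.

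Among the 4 culture times the called steps lay between D6 and D16, which leaves out the fall from 8.5 dpp to D6. The members' median difference was -0.87 from 8.5 dpp to D6 and -0.80 from D6 to D16. Over the 4 culture times 4 members were called by limma's F test, Cnn1, Tagln, Des and Actg2 (adjusted p from 0.00357 to 0.0400, limma), where 6.71% of genes were. Without the third D6 library the count was 2. From D6 to D16, 3 members were called lower against 1.69% of genes, namely Cnn1 (-1.37 ± 0.25), Des (-1.29 ± 0.23) and Actg2 (-1.18 ± 0.26), with adjusted p from 0.0056 to 0.013 (limma). Limma called 0 members from D16 to D22, where 0.264% of genes were called either way and 1 member, Myl9, passed an unadjusted p of 0.05. It called 0 from D22 to D28, where 0.00880% of genes were called and 0 members passed unadjusted. The members' median level was 56.0% of the start at D6 and 33.2%, 38.3% and 38.3% at D16, D22 and D28.

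In vivo most of the called steps lay between 14.5 and 24.5 dpp on the FPKM scale. With each library centred on its Sertoli cell markers, more members were called lower from 8.5 to 14.5 dpp than from 14.5 to 24.5 dpp. At 36.5 dpp 8 of the 10 members stood at a smaller percentage of their 8.5 dpp mean than at D28 on the FPKM scale. Myh11 and Actg2 did not. After centring each library on its Sertoli cell markers all 10 lay lower at D28 than at 36.5 dpp, though Actg2 was near 0 FPKM in both groups. All 10 changed over the 6 ages by the F test (adjusted p from 3.765e-11 for Myl9 to 6.193e-06 for Acta2, limma), as did 90.2% of all genes. From 8.5 to 14.5 dpp only Tagln (-1.23 ± 0.32, adjusted p = 0.00728, limma) and Actg2 (-0.997 ± 0.32, adjusted p = 0.0244, limma) of the members were called lower, against 6.32% of genes. After centring on Sertoli cell markers 6 were called lower on this step (Cnn1, Tagln, Des, Myl9, Actg2 and Smtn), against 27.3% of genes. Mylk went the other way, from 24.4, 24.2 and 22.7 FPKM to 29.1 and 30.8, both above every 8.5 dpp library, though the difference of 0.32 ± 0.15 did not pass (adjusted p = 0.110, limma).

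From 14.5 to 24.5 dpp all 10 members were called lower, against 21.4% of genes. The differences ran from -3.27 for Acta2 to -1.02 for Actg2, with a median of -1.46 where all genes had -0.13. Acta2 fell from 243 and 127 FPKM to 27.7, 6.86 and 26.1, Cnn1 from 32.3 and 27.1 to 10.6, 6.10 and 8.18, and Myl9 from 814 and 601 to 280, 244 and 241. In each of these genes the ages did not overlap. Over the same step the summed FPKM of the germ cell markers went from 114 and 284 to 841 to 979, and its part in the members' fall was not tested. When every library was centred on its Sertoli cell markers, 3 of the 10 stayed called lower on this step, Acta2, Cnn1 and Tagln, against 4.54% of genes lower and 36.2% higher.

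On the later steps limma called 0 members lower or higher. The lower shares over all genes were 24.5% from 24.5 to 30.5 dpp, 1.40% from 30.5 to 36.5 dpp and 3.93% from 36.5 to 53.5 dpp, and 2, 3 and 4 members passed an unadjusted p of 0.05 on these steps, all of them lower. After centring on Sertoli cell markers, Myh11 was called higher from 24.5 to 30.5 dpp (1.01), as were 35.4% of genes. By 53.5 dpp the members stood at 2.37% (Acta2) to 23.3% (Myh11) of their 8.5 dpp means, with a median of 8.73%.

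The cultured tissues were then set against the testis of the same age. At D6 and 14.5 dpp limma called 0 of the 10 members, where 7.94% of genes were called either way, and 3 members passed an unadjusted p of 0.05. Without the third D6 library the count was 2. The libraries of Myh11, Cnn1 and Mylk at D6 lay below both at 14.5 dpp, 3 of 10 against 28.8% of genes. Mylk passed the test (-0.85 ± 0.17, adjusted p = 0.0283, limma) but not the ratio, at 16.6, 13.3 and 19.3 FPKM against 29.1 and 30.8. Des and Smtn pointed up, with differences of 0.44 ± 0.25 and 0.52 ± 0.26 that did not pass (adjusted p = 0.273 and 0.203, limma).

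At the later ages the members called were all higher in culture on the FPKM scale, and none of the 10 was called higher after centring each library on its Sertoli cell markers. At D16 and 24.5 dpp these were Myl9 and Smtn, 2 of 10 where 25.3% of genes were called higher. At D22 and 30.5 dpp they were Acta2, Des, Lmod1, Myl9 and Smtn, 5 of 10 where 42.1% were. At D28 and 36.5 dpp they were Des, Lmod1, Myl9 and Smtn, 4 of 10 where 46.7% were. These shares lay near or under those of all genes, with 5 of 10 at D22 the highest against its background.

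Myl9 showed the widest gap at D28. It measured 477, 492 and 609 FPKM there and 121, 102 and 95.7 at 36.5 dpp, with no overlap and a difference of 2.29 ± 0.14 (adjusted p = 3.281e-06, limma), which was -0.25 after centring on Sertoli cell markers. Des measured 25.0, 14.02 and 16.0 against 6.95, 4.61 and 2.54, a difference of 1.80 ± 0.32 (adjusted p = 0.00122, limma), and -0.75 after that centring. Myh11, in contrast, was at 13.05, 12.98 and 17.3 in culture and 18.5, 14.6 and 11.9 in vivo, with overlap and a difference of -0.04 ± 0.18 (adjusted p = 0.833, limma).

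Cnn1 was alike in this respect, at 3.31, 5.11 and 5.69 FPKM against 5.56, 4.87 and 2.70 (0.10 ± 0.25, adjusted p = 0.718, limma). Acta2 was spread from 3.34 to 35.3 among the 36.5 dpp libraries, and its difference of 1.65 ± 0.71 did not pass (adjusted p = 0.061, limma).

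Centring on Sertoli cell markers moved the median of all genes by -2.55 at D28 against 36.5 dpp and by -2.23 at D22 against 30.5 dpp. After it, members were called lower in culture and none higher. They were 3 at D16 (Myh11, Cnn1 and Actg2), where 46.0% of genes were called lower, and 5 at D22 (Myh11, Cnn1, Tagln, Mylk and Actg2), where 65.5% were. At D28 they were 6 (the same 5 and Smtn), where 66.6% were, so none of these counts stood above its background. The shift was subtracted after the pseudocount was added, so it moved genes near 0 FPKM as far as high ones. Actg2, at means of 0.264 FPKM at D28 and 0.46 at 36.5 dpp, went from -0.19 to -2.74. Its calls here are thus not read as a fall, and the background shares hold such genes too. The share of all genes called higher at D28 against 36.5 dpp went from 46.7% to 3.07% and that called lower was 23.6% before centring. Under median ratio scaling, which moved the median by -0.59, these were 32.6% and 33.0%. Against 8.5 dpp, in contrast, every member kept its lower direction at D28 under both, though 53.2% of all genes were called lower there after centring on Sertoli cell markers. Of 10 Sertoli cell markers tested 3 were themselves higher at D28 than at 8.5 dpp, Clu by 4.15, Cldn11 by 3.31 and Amhr2 by 2.11 (log2), so that centring holds its own shift.

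**Figure D3:**
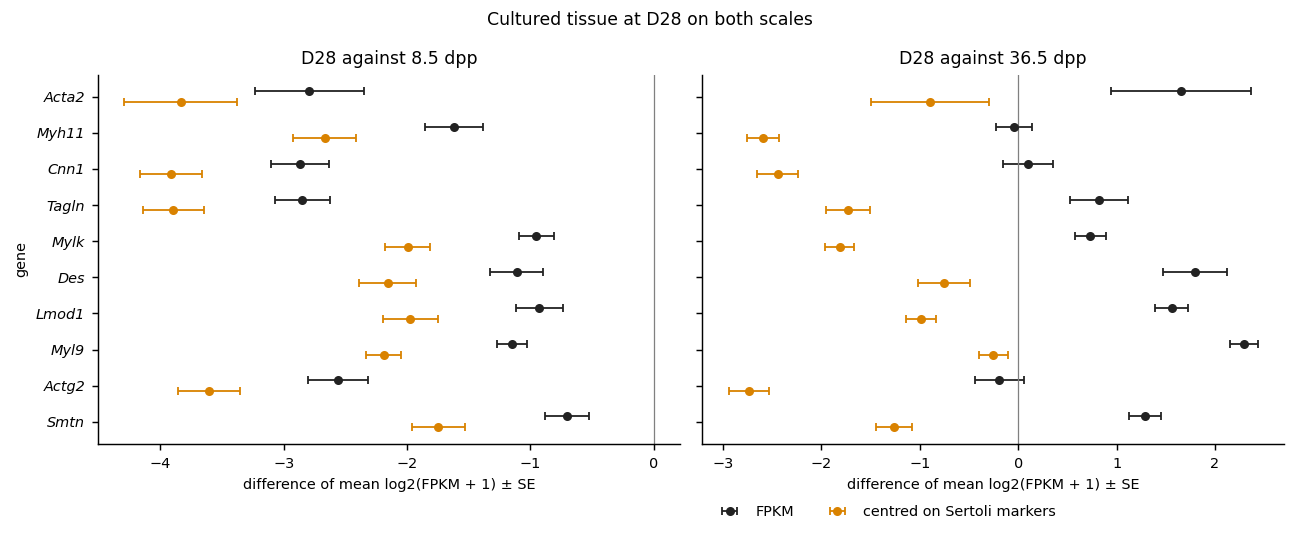
Differences of log2(FPKM + 1) ± SE for the 10 contractile genes at D28 against 8.5 dpp (left) and against 36.5 dpp (right), as deposited (black) and after centring each library on Sertoli cell markers (orange). Against 8.5 dpp both scales lie below 0 for all 10, and against 36.5 dpp, where Myl9 goes from 2.29 to -0.25, the sign of 8 members turns.

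Tests of whether the change from 14.5 to 36.5 dpp differed between testis and culture called 6 members, Acta2, Tagln, Mylk, Des, Lmod1 and Myl9. Each fell less in culture on the FPKM scale, where 38.4% of genes were called in that direction. The difference between changes also holds the start at D6. All of the 6 but Des already lay lower at D6 than at 14.5 dpp, from -0.21 for Myl9 to -0.88 for Acta2, though not called. Des was at 0.44. Acta2, Tagln and Mylk were not called at D28 against 36.5 dpp. The 6 did not fall less in culture after centring on Sertoli cell markers, where 0.322% of genes were called in that direction and 80.4% in the other. Lmod1 fell by 0.22 on the log2(FPKM + 1) scale from D6 to D28 and by 2.39 in vivo, a difference of 2.17 ± 0.33 (adjusted p = 0.000142, limma). Myl9 fell by 0.21 and 2.71 (difference 2.499 ± 0.23, adjusted p = 4.273e-06, limma). The count was 3 without the first 14.5 dpp library and 8 without the third D6 library. For Actg2 the difference was -0.02 (adjusted p = 0.971, limma). All 6 differences turned negative after that centring, which moved the median of all genes by -2.83.

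Against 14.5 dpp, the reference the study chose, 6 members were called lower at D16, D22 and D28 alike by limma's F test over the 3 comparisons. These were Acta2, Myh11, Cnn1, Tagln, Mylk and Actg2, with adjusted p from 0.000612 for Myh11 to 0.0254 for Acta2 (limma), where 5.35%, 5.51% and 6.00% of genes were. Acta2, Tagln, Myh11, Cnn1 and Mylk belong to a gene group that the study formed on these same libraries, so their direction here is not independent evidence. The 3 comparisons share the 2 libraries of 14.5 dpp, and without the first of them the counts were 3, 4 and 4. Des, Myl9 and Smtn did not pass (adjusted p = 0.107, 0.101 and 0.92, limma), and Lmod1 passed (adjusted p = 0.0143, limma) without reaching the ratio. Smtn at D28 was at 6.60, 4.25 and 4.72 FPKM and at 14.5 dpp at 6.48 and 3.93, which overlapped.

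The in vivo age whose mean lay nearest to D28 differed among members. It was 14.5 dpp for Des, Myl9 and Smtn, 24.5 dpp for Acta2, Tagln, Mylk and Lmod1, 30.5 dpp for Actg2 and 36.5 dpp for Myh11 and Cnn1.

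Each contractile protein has a relative that other cells also make, and the ratio of their FPKM within a library does not move with its scaling. Tagln over Tagln2 was 0.847 ± 0.073 (SD, n = 3) at 8.5 dpp, rose to 3.05 ± 0.51 at 36.5 dpp, and went to 0.144 ± 0.042 at D28. Its ranges did not overlap, at 0.800 to 0.931, 2.47 to 3.43 and 0.115 to 0.193. Cnn1 over Cnn3 went from 0.239 ± 0.0077 to 0.663 ± 0.15 in vivo and to 0.0561 ± 0.022 at D28, again without overlap. At these points both pairs lay on opposite sides of the same start in testis and culture, because the relative fell further than the member in vivo and less in culture. The in vivo course of Tagln over Tagln2 was not a steady rise, at 0.570 to 0.644 at 14.5 dpp and 0.436 to 1.795 at 24.5 dpp.

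For the actins both courses went down. Acta2 over Actb was 0.174 ± 0.032 at 8.5 dpp, 0.0309 ± 0.026 at 36.5 dpp and 0.0356 ± 0.013 at D28, and the last groups overlapped. Myh11 over Myh10 was 1.195 ± 0.063, 1.04 ± 0.28 and 0.890 ± 0.15, Myl9 over Myl12a 3.33 ± 0.21, 2.62 ± 0.21 and 2.28 ± 0.39, and Des over the widespread filament protein Vim 0.0583 ± 0.0063, 0.0951 ± 0.035 and 0.0545 ± 0.00997 at the same 3 points. The 36.5 dpp and D28 ranges of these 3 pairs overlapped. Before that, at 14.5 dpp, Myh11 over Myh10 stood at 2.16 to 2.64, above every 8.5 dpp library. The ratios are given as a description, with no test, and they show unequal change of the pair only.

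**Figure D4:**
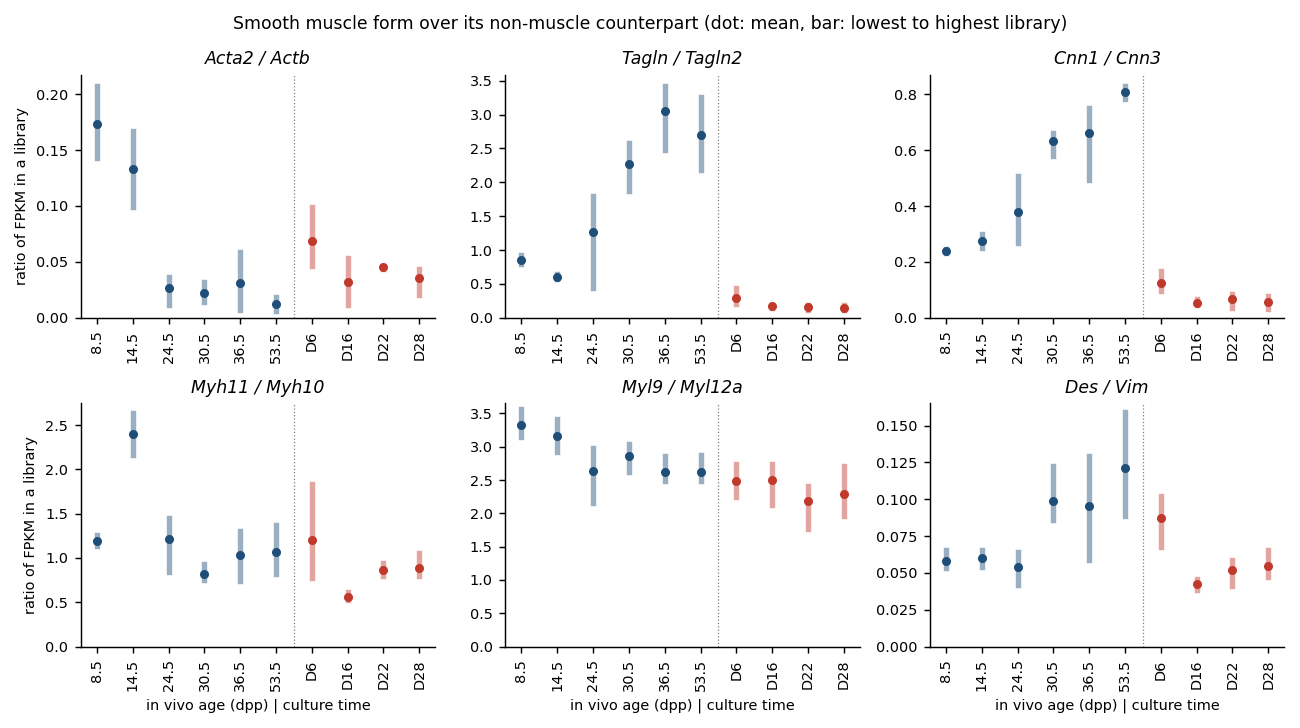
Ratio of FPKM of 6 contractile genes to a relative made by other cells too, by group, on a linear axis, with dots for means and bars from the lowest to the highest library. Tagln over Tagln2 rose from 0.847 to 3.05 at 36.5 dpp in vivo and stood at 0.144 at D28.

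Among 15 relatives tested at D28 against 8.5 dpp, 5 were called lower, 2 higher and 8 not. Over all genes 10.5% were called lower and 13.6% higher there. Those lower included Mylk2 (-2.09), Acta1 (-1.45) and Myh10 (-1.20), and Vim was at -1.05. Smtnl2 (1.09) and Myh14 (0.80) were higher. The cytoskeletal actins were not called, with Actb at 1257 FPKM against 1740 and Actg1 at 220 against 389.

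Of 26 other genes of the smooth muscle thin filament and cytoskeleton, 10 were called lower, 3 higher and 13 not, against 10.5% and 13.6% of all genes. Their median was -0.84 where all genes had 0.04. The largest falls were in Pdlim3, a PDZ and LIM protein of the Z-disc, from 75.0 to 6.25 FPKM (-3.40), Tpm2, the β-tropomyosin of the actin filament, from 23.5 to 2.43 (-2.88), and Tgfb1i1, a LIM protein of focal adhesions, from 15.3 to 3.67 (-1.81). Pdlim3 measured 73.5, 79.5 and 71.9 at 8.5 dpp and 5.03, 6.19 and 7.53 at D28, far apart. Itga7 (0.99), Synm (0.88) and Synpo2 (0.72), an integrin, an intermediate filament protein and an actin bundler, were higher.

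The regulators of this programme did not follow the members as a group. Of 13 tested, 1 was lower and 2 were higher, where 10.5% and 13.6% of all genes were, and 10 were not called. Myocd, myocardin, the muscle-specific partner of serum response factor, was at 1.62, 1.91 and 2.21 FPKM at 8.5 dpp and 0.338, 0.433 and 0.393 at D28, without overlap (-1.07, adjusted p = 6.874e-07, limma). Srf itself was at 30.8, 31.5 and 29.2 and then 27.6, 23.4 and 21.7, also without overlap but within the ratio (-0.33, adjusted p = 0.00381, limma). Klf5, a zinc finger factor of dividing smooth muscle, was called higher (0.50). Mrtfa and Mrtfb, the other partners of serum response factor, were not matched in the table.

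Of 22 contraction signalling genes tested, 2 were called lower at D28, 1 higher and 19 were not called. The shares over all genes were 10.5% lower and 13.6% higher, here and for the lists that follow. Lower were Ppp1r12b (-1.34), the targeting subunit of muscle myosin phosphatase, and Arhgef25 (-0.95), an exchange factor for RhoA, and Ppp1r12c (1.17) was higher. Of 21 receptors and channels 6 were lower and 3 higher. The largest falls were in Kcnmb1 (-1.80), the β subunit of the calcium-activated potassium channel, the endothelin receptor Ednrb (-1.38) and the prostaglandin F receptor Ptgfr (-1.31). Stim1 (1.71), Ptger1 (1.68) and the ligand Edn1 (1.14) were higher. Kcnmb1 went from 10.0, 7.80 and 8.80 FPKM to 1.84, 2.00 and 1.66, all D28 libraries lying below. Of 14 genes of the TGF-β and mechanical response, 3 were lower, Postn (-2.5), Smad7 (-1.39) and Ankrd1 (-0.68), and Tgfb3 (1.43) was higher.

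**Figure D5:**
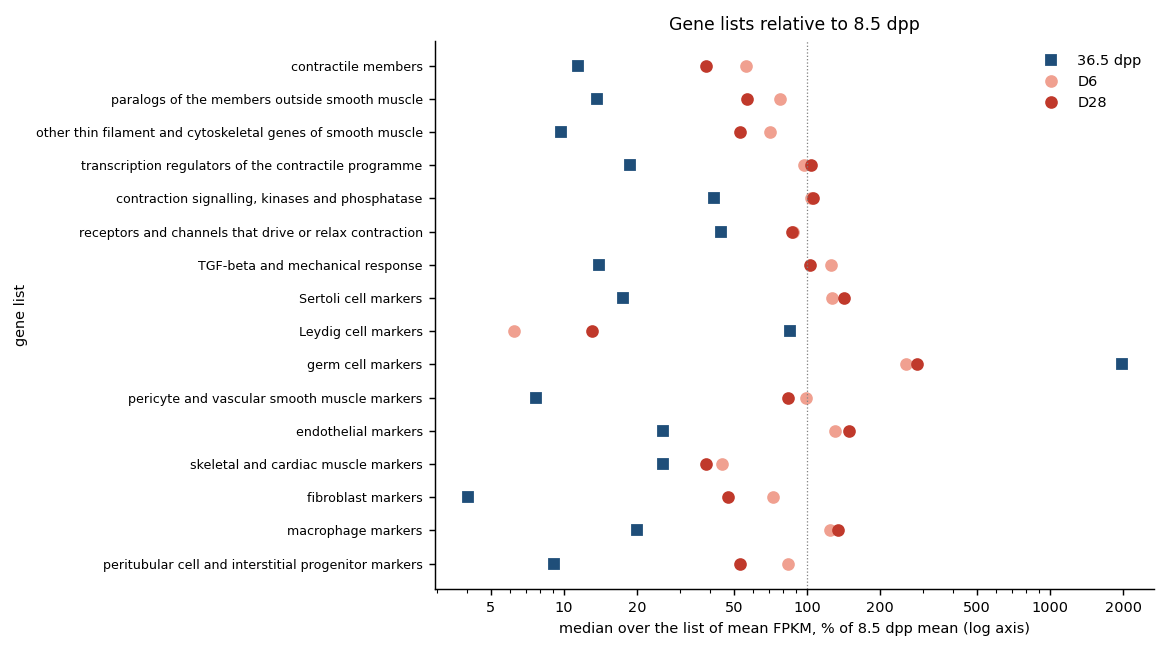
Median level of 16 gene lists as a percentage of each gene's 8.5 dpp mean, on a log axis, at 36.5 dpp in vivo (blue squares), D6 (pale dots) and D28 (red dots). The contractile genes stood at 38.3% at D28, their regulators at 104% and the pericyte markers at 83.6%. Fibroblast markers stood at 47.4% and those of peritubular cells and interstitial progenitors at 53.05%.

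Markers of other cells that hold or surround these transcripts moved unevenly. Of 11 markers of pericytes and vascular smooth muscle, 2 were lower (Cspg4 -1.47, Heyl -1.06), 2 higher (Abcc9 1.49, Ndufa4l2 1.14) and 7 not called at D28, against 10.5% of genes lower and 13.6% higher. Their summed FPKM was 114 to 119 at 8.5 dpp and 72.0 to 127 at D28, which overlapped, while that of the 10 members went from 1872 to 1969 down to 609 to 772. Of 7 markers of peritubular cells and interstitial progenitors, 3 were lower, Gli1 (-1.14), Pdgfra (-0.997) and Nr2f2 (-0.94), and 4 were not called. Their summed FPKM went from 211.3 to 226.6 at 8.5 dpp down to 120.6 to 145.5 at D28, without overlap. Of 6 fibroblast markers 4 were lower, and their sum went from 1115 to 1139 at 8.5 dpp down to 594 to 713 at D28. Of 8 endothelial markers 1 was lower and 2 higher, with sums of 55.4 to 59.0 and 55.3 to 100.1, which overlapped.

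Of 6 Leydig cell markers 5 were lower at D28, with a median level of 13.04% of the start. Their summed FPKM had already gone from 230 to 330 at 8.5 dpp to 12.7 to 19.7 at D6. Of 7 tested skeletal and cardiac muscle markers 4 were lower, and of 4 macrophage markers 2 were higher. The part of each of these in the members' values was not tested.

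Single libraries stood apart for the set as a whole. The third D6 library was the highest of its group for 10 of 10 members, as it was for 38.2% of genes, and the first 36.5 dpp library for 10 of 10, as for 45.6% of genes. The first 14.5 dpp library was the higher for 9 of 10, as for 44.8% of genes. At D6 this widened the spread of Acta2 (61.5 to 158 FPKM) and Myh11 (19.0 to 41.2) most.

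Across the 10 groups the members went together. The correlation of each member's mean log2(FPKM + 1) with the mean of the other 9 was 0.822 for Actg2 to 0.984 for Acta2 (Pearson, 10 groups that share their normalisation). Of 12762 genes compared, a count that includes the members, the non-members whose group means were most like the standardised mean of the members were Cdh3, Tk1, Ebf1, Prkcb, Cd248, Nlgn3, Mpp2, Fam111a, Skp2 and Rpl23a, with r from 0.994 to 0.986 over the same 10 groups. Cdh3 went from 14.6 FPKM at 8.5 dpp to 0.732 at 36.5 dpp and 1.98 at D28, and Tk1, thymidine kinase, from 75.9 to 2.62 and 8.85. By Spearman's rho 3 of these 10 were again among the 10 most alike.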

How the data were processed

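The authors demultiplexed stranded mRNA libraries (single reads of 50 bp, bcl2fastq 2.17.1.14), aligned them to the rat rn6 build with STAR 2.5.2a and deposited FPKM per RefSeq gene, which scale with all other RNA in the library. Entrez gene numbers were paired with symbols through RefSeq, and 17172 of 17322 matched. Genes whose median reached 0.5 FPKM in any compared group were tested as log2(FPKM + 1) with limma 3.58.1 in R 4.3.3, with Benjamini-Hochberg adjustment over all genes tested. A call needed an adjusted p of at most 0.05 and a ratio of medians of at least 2, or a size of at least 1 for the difference between changes. The F test against 14.5 dpp followed the study. The steps were tested on simulated data.

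Members and gene lists were chosen with earlier results of these data known. Named genes were all members, 3 rises and 3 falls per list, fixed regulators and cytoskeletal genes, and the 10 genes most alike. There were 11 alternatives beside leaving out each library. One library, listed at 0, was not used. FPKM keep no read totals, so no counting interval was computed. Of the genes that this rule named, 1 regulator is not reported here.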

Additional observations from a re-analysis of the deposited data

Results flagged for a closer look

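For 6 members the change from 14.5 to 36.5 dpp differed between testis and culture by a test of that difference in limma. Culture minus in vivo, it was 2.53 ± 1.01 for Acta2 (adjusted p = 0.0426, limma), 1.45 ± 0.49 for Tagln (adjusted p = 0.0211, limma), 1.58 ± 0.24 for Mylk (adjusted p = 0.000159, limma), 1.36 ± 0.48 for Des (adjusted p = 0.024, limma), 2.17 ± 0.33 for Lmod1 (adjusted p = 0.000142, limma) and 2.499 ± 0.23 for Myl9 (adjusted p = 4.273e-06, limma). All genes had a median of 0.63, and 38.4% of them were called in that direction. Of 11 fits that each left out 1 library, the call was lost for Acta2 in 7, for Des in 4 and for Tagln in 1. From D6 to D28 Acta2 fell by 1.15 and in vivo by 3.68, Tagln by 0.99 and 2.44, Mylk by 0.43 and 2.00, and Des by 1.01 and 2.37. All of the 6 but Des already lay lower at D6 than at 14.5 dpp, though not called, and this enters their difference. The 6 differences became negative after centring on Sertoli cell markers.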

How the results depend on the processing

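Total depth was unknown, so what it limits could not be computed, and Actg2 was listed at 0 in some libraries. The direction against testes of the same age depended on the scaling. Libraries that share a replicate number were not treated as pairs. The median correlation of their deviations was 0.0166, over 0.1 in 11 of 126 pairs. Between libraries with different numbers it was -0.00928, over 0.1 in 11 of 252 pairs. With the replicate number as a block, 1 member was called at D6 against 14.5 dpp in place of 0, where 3.32% of genes were called. Of the members' single calls 4 were lost and 2 gained under it, while 5 were lost with pseudocount 0.1, 4 under quantile normalization and 7 under median ratio scaling. The same 1 came from fitting all 10 groups together, where 10.2% of genes were called. With pseudocount 0.1 the culture course called 2 by the F test, with no share over all genes computed. Median ratio scaling called 3 at D22 against 30.5 dpp and 2 for the difference between changes, where 61.1% and 51.0% of genes were called either way. Centring on Sertoli cell markers called 8 at D6 and 10 at D16 against 8.5 dpp, where 17.1% and 41.1% of genes were called lower. Over the culture course this centring called 8 by the F test, for which no share over all genes was computed. It called 5 culture steps, where 8.22% of genes were called from D6 to D16 and 0.149% from D16 to D22. The adjusted p alone called 8 at D6 and 10 at D16 against 8.5 dpp, where 20.5% and 26.3% of genes were called lower. It called 1 at D6 against 14.5 dpp and 4 at D16 against 24.5 dpp, where 15.5% and 72.4% were called either way.

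Directions that turned were as follows. Quantile normalization gave, at D22 against 30.5 dpp, -0.17 for Myh11 and -0.30 for Cnn1, and -0.41 for Cnn1 at D28 against 36.5 dpp. Median ratio scaling gave -0.49 for Myh11, -0.46 for Cnn1 and -0.0905 for Mylk at D22, and -0.51 for Cnn1 at D28. Centring on Sertoli cell markers gave, at D6 against 14.5 dpp, 0.0712 for Myl9 and 0.10 for Actg2. At D16 against 24.5 dpp it gave -0.056 for Acta2, -0.56 for Tagln, -0.67 for Mylk, -0.28 for Des and -0.31 for Lmod1. At D22 against 30.5 dpp it gave -2.16 for Myh11, -2.18 for Cnn1, -1.51 for Tagln, -1.77 for Mylk, -1.08 for Des, -1.11 for Lmod1, -0.41 for Myl9, -1.97 for Actg2 and -0.81 for Smtn. Actg2 was near 0 FPKM in both of these groups, where the shift still moves a gene in full. At D28 against 36.5 dpp it gave -0.90 for Acta2, -2.45 for Cnn1, -1.73 for Tagln, -1.82 for Mylk, -0.75 for Des, -0.99 for Lmod1, -0.25 for Myl9 and -1.26 for Smtn. For Smtn against 14.5 dpp it gave -0.00567, -0.23 and -0.31 at D16, D22 and D28. For the difference between changes it gave -0.30 for Acta2, -2.02 for Myh11, -1.97 for Cnn1, -1.37 for Tagln, -1.25 for Mylk, -1.46 for Des, -0.65 for Lmod1, -0.33 for Myl9 and -2.06 for Smtn. The cause was not tested.

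Leaving out each library in turn gave, against 8.5 dpp, 4 to 6 members at D6, 6 to 8 at D16, 7 to 8 at D22 and 7 to 9 at D28. Against the same age it gave 0 to 2 at D6, 2 at D16, 5 to 6 at D22 and 4 to 5 at D28. Against 14.5 dpp it gave 3 to 7 at D16 and 4 to 6 at D22 and D28. The courses called 10 in vivo and 2 to 4 in culture, with 10 to 14 and 2 to 4 steps, and the difference between changes 3 to 8. Directions turned for Actg2 at D6 against 14.5 dpp (-0.47 to 0.12) and in the difference between changes (-0.31 to 0.28). They turned for Cnn1 at D22 against 30.5 dpp (-0.11 to 0.28) and at D28 against 36.5 dpp (-0.15 to 0.29), and for Myh11 there (-0.0022 to 0.20 and -0.19 to 0.11). They turned for Des at D6 against 8.5 dpp (-0.28 to 0.0716), for Myl9 at D6 against 14.5 dpp (-0.43 to 0.0115) and for Smtn against 14.5 dpp (-0.16 to 0.44, -0.24 to 0.36 and -0.29 to 0.31 at D16, D22 and D28).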
